A study of Mus musculus with 12 samples.

Results

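Genes of bile acid synthesis, conjugation, transport and control were followed in the livers of 12 mice, measured on Agilent one-colour expression arrays with 1 array per mouse. The 32 genes were chosen by name, from knowledge of the pathway, and all 32 had at least 1 of 40 probes on the array. Of these, 31 gave a signal that could be tested, among 20576 tested genes of 34607 names on the array. The exception was Slc51a, whose 2 probes were well above background on 0 and 0 of 4 arrays of E2f1 knockout livers, 0 and 0 of E2f2-labelled livers and 1 and 0 of wild type livers. The E2f1 knockout (E2f1-/-), the E2f2 knockout (E2f2-/-) and the wild type (129/Sv x C57BL/6) group held 4 mice each. E2f1 and E2f2 encode transcription factors of the cell cycle.

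All 3 groups, the wild type included, had a single intraperitoneal dose of the liver carcinogen diethylnitrosamine (25 mg/kg) at 14 days of age. A diet with 60% of its calories from fat followed for 32 weeks, and livers were taken at 9 months of age after a 4 h fast. The effect of a genotype on an untreated liver was therefore not measured. For the E2f1 knockout mice, a single label field names vehicle and chow, while the title, description, characteristics and protocol name the carcinogen and the fatty diet. Every comparison with these mice carries this conflict. Neither the deleted part of each gene, nor the time of day at killing, nor the animals' sex is stated in the labels.

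The liver makes bile acids from cholesterol. The classical pathway starts with Cyp7a1 and branches at Cyp8b1, the alternative pathway runs through Cyp27a1 and Cyp7b1, and Cyp39a1 acts on 24-hydroxycholesterol. Further enzymes reshape the rings and the side chain before taurine or glycine is joined on. Hepatocytes take bile acids up from the blood across the basolateral membrane, mostly through Slc10a1 (NTCP), and pump them into bile across the canalicular membrane through Abcb11 (BSEP). The nuclear receptor Nr1h4 (FXR) senses bile acids and induces Nr0b2 (SHP), which represses synthesis, while the ileal hormone FGF15 acts on hepatocytes through Fgfr4 and Klb.

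Promoter sequence was at hand for 24 of the 32 genes, as 32 entries of the RefSeq table on GRCm38.p6, and the 250 bases before each start site were searched on both strands. The hexamer AGGTCA, bound by many nuclear receptors, was in 11 of 32 entries (34.4%), from 10 genes, against 14.0% of all 32851 promoters in the table. Within the last 100 bases it was in 6 entries (18.8%), against 5.88% of all promoters. These 6 stretches are shown because they carry the hexamer nearest to the start of transcription. The hexamer is in capitals (TGACCT where it lies on the other strand), each is written 5′ to 3′ along the gene's own strand, and the last base is the one before the start site.
Abcb11 (chr2:69342617-69342716, minus strand): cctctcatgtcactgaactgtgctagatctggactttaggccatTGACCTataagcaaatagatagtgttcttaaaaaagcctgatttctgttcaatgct
Abcc2 (chr19:43782208-43782307, plus strand): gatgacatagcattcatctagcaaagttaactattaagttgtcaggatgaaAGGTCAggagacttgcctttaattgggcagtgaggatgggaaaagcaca
Nr5a2 (chr1:136960449-136960548, minus strand): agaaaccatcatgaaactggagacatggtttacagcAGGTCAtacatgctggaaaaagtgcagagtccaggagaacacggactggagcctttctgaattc
Slc10a1 (chr12:80968080-80968179, minus strand): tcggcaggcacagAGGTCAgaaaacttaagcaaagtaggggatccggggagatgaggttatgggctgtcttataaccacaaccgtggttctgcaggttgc
Slc51a (chr16:32487880-32487979, minus strand): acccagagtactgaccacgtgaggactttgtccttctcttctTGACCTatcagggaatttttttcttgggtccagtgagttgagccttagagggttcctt
Slco1b2 (chr6:141629418-141629517, plus strand): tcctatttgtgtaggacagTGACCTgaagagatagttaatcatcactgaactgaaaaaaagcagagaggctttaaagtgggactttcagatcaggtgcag

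Other motifs were searched in the same windows. The longer NR5A2 element, CAAGGTCA or CAAGGCCA, the first of which contains AGGTCA, was in 3 entries (Abcg2, Nr0b2 and Slc51a), which is 9.38% against 3.28% of all promoters. The inverted repeat of AGGTCA, any 1 base and TGACCT, bound by the farnesoid X receptor, was in 0 of 32 entries and in 2 of all 32851. An E2F element (TTTCCCGC, TTTGGCGC, TTTCGCGC or TTTGCCGC) was in 0 of 32 entries, against 1.86% of all promoters, and a D-box (TTATGTAA or TTACGTAA) in 0 of 32, against 0.931%. A match gives letters in a window and not a bound site, and a window without one leaves the rest of the gene unsearched. Abcg5 and Abcg8, which encode the 2 partners of one sterol transporter, lie head to head and share the 109 bases between their start sites, shown because both genes changed together.
Abcg5 and Abcg8 (chr17:84683012-84683120, plus strand, reading towards Abcg8): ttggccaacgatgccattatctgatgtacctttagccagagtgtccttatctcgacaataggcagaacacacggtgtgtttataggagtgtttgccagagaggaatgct

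Levels are log2 processed signals relative to the 75th percentile of their own array, so 1 unit is a doubling and values of different genes cannot be set against each other. That percentile lay between 119 and 238 intensity units. The number of arrays limits the precision: 4 per group. Group means are given with their SD (n = 4 livers each). Changes are differences in this log2 level with their standard error, fitted with limma to all 12 arrays, and a gene was called at a Benjamini-Hochberg adjusted p under 0.05 over all 20576 genes. The probe for E2f1 was lower in E2f1 knockout livers, with a change of -0.82 ± 0.19 (adjusted p = 0.0114). The probe for E2f2 was not called lower in the livers labelled E2f2 knockout, at -0.26 ± 0.21 (adjusted p = 0.408), while it was lower in E2f1 knockout livers, at -1.50 ± 0.21 (adjusted p = 0.00141). Whether these probes lie in the deleted part is not given. As the label of the E2f2 group was not borne out by this probe, that group is called E2f2-labelled here. The E2f1 probe differed in it by -0.16 ± 0.19 (adjusted p = 0.58). The fall of the E2f2 probe in the E2f1 knockout group leaves that group's label in doubt too, and which deletion each comparison measures was not settled by these probes. Every slide carried 1 array from each group, and a group kept its position on every slide, so a position effect cannot be told apart from the group. Wild type replicate 3 had the highest of the 4 wild type levels in 19 of 31 genes of the pathway. It reached the lowest E2f1 knockout level in 4 of 18 genes called higher there, and the lowest E2f2-labelled level in 4 of 16. The same counts over all genes were not made, so a trait of the whole array cannot be told apart from one of the pathway. Without that array, 18 genes were called higher and 2 lower in E2f1 knockout livers, and 17 higher and 3 lower in E2f2-labelled livers. The lower call gained in each comparison was Slc51b, which passed the filter on dim probes through wild type arrays alone, so that call carries no weight. Levels are from whole liver, in which fewer cells of a type and less RNA per cell cannot be told apart.

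In E2f1 knockout livers 18 of the 31 tested genes were called higher and 1 lower, with a median log2 change of 1.07. Over all genes in that comparison 20.6% were called, 13.2% higher and 7.41% lower, with a median of 0.13. In E2f2-labelled livers 16 were called higher and 2 lower, with a median of 0.92, while 22.2% of all genes were called, 14.6% higher and 7.58% lower, with a median of 0.18. The 2 comparisons share the wild type arrays. The balance of all calls depended on scaling: 64.0% of E2f1 calls were higher, against 46.6% when arrays were scaled on probes detected on every array, and 65.8% of E2f2 calls against 41.9%. That scaling moved the median of all genes to -0.03 for E2f1 knockout and to 0.00 for E2f2-labelled livers, and the median of the pathway to 0.92 for E2f1 knockout and 0.74 for E2f2-labelled livers.

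All 4 E2f1 knockout levels lay above all 4 wild type levels in 15 of the 31 genes, and below in 0, while 14.5% and 6.77% of all genes did so. For E2f2-labelled livers the counts were 14 above and 2 below, against 16.8% and 7.05% of all genes. Within slides, 17 of 18 genes called higher in E2f1 knockout livers were higher on all 4 slides, Slc10a2 being the exception. All 16 genes called higher in E2f2-labelled livers were higher on all 4. These genes were called from the same values, and of all genes called higher 98.2% were higher on every slide in the E2f1 comparison and 97.6% in the E2f2 comparison. The plot of changes by role gives all 31 genes.

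**Figure D1:**
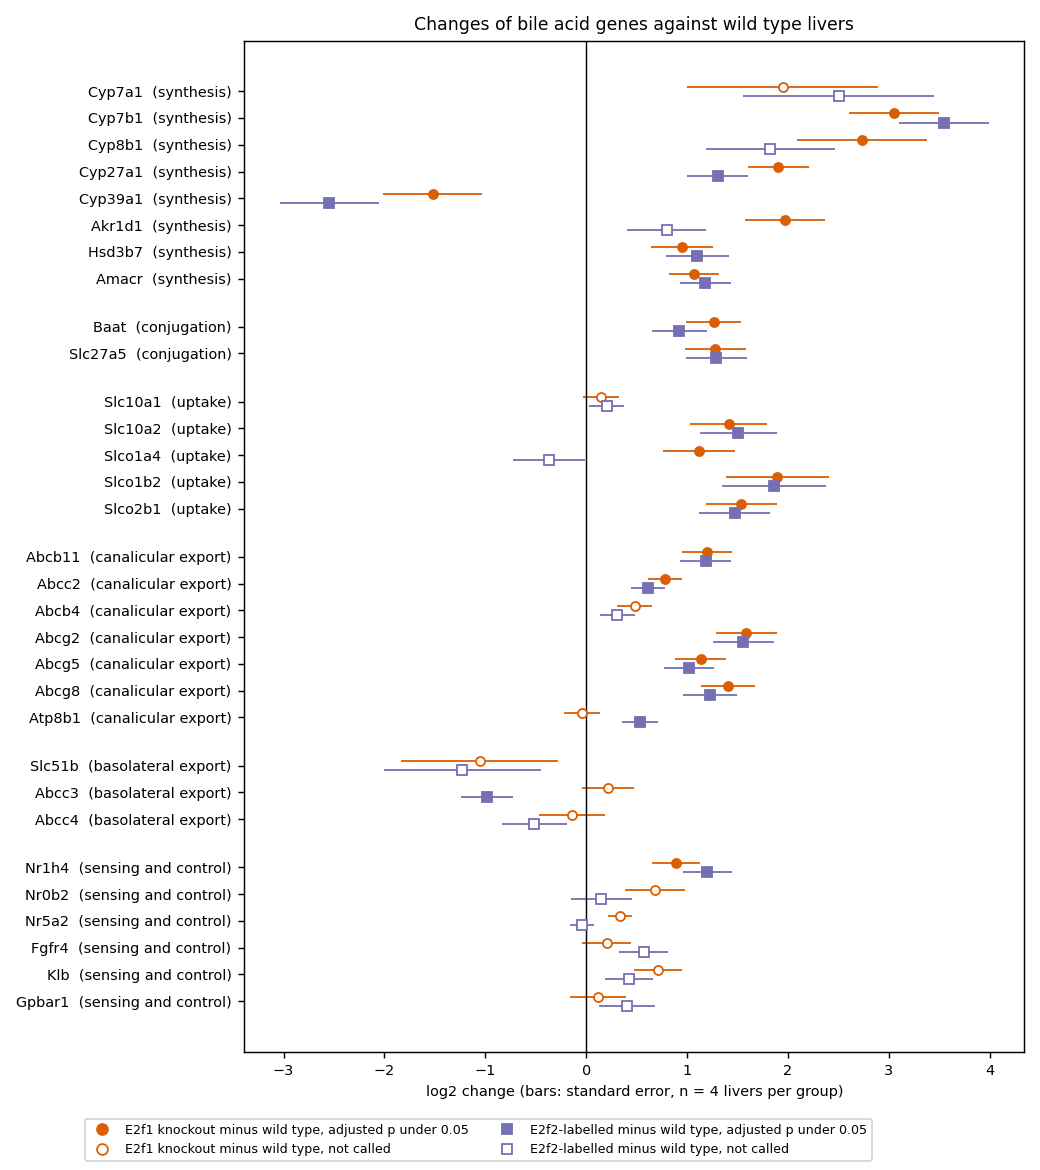
The plot gives the log2 change against wild type livers (x axis, bars: standard error, 4 livers per group) for 31 bile acid genes grouped by role, with E2f1 knockout livers as circles above E2f2-labelled livers as squares. Filled symbols have an adjusted p under 0.05, and the filled ones lie right of 0 apart from Cyp39a1 in both comparisons and Abcc3 in E2f2-labelled livers.

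Of 8 synthesis genes, 6 were called higher and 1 lower in E2f1 knockout livers, with a median log2 change of 1.93. In E2f2-labelled livers 4 were called higher and 1 lower, with a median of 1.24. Among all genes 13.2% were called higher and 7.41% lower in the E2f1 comparison, and 14.6% and 7.58% in the E2f2 comparison. The largest rise was that of Cyp7b1, the oxysterol hydroxylase of the alternative pathway, a gene known for higher levels in male than in female mouse liver. Its log2 level was 7.46, 8.23, 7.80 and 7.22 in E2f1 knockout livers, 7.93, 8.37, 8.48 and 7.91 in E2f2-labelled livers and 3.70, 4.40, 6.25 and 4.16 in wild type livers. Every liver of either genotype was above every wild type liver, of which replicate 3 was the highest. Cyp7b1 rose by 3.05 ± 0.45 (adjusted p = 0.00161) in E2f1 knockout livers, which is 8.28-fold, and by 3.55 ± 0.45 (adjusted p = 0.000476) in E2f2-labelled livers, which is 11.7-fold. Within slides the E2f1 difference ran from 1.55 to 3.83 and the E2f2-labelled difference from 2.23 to 4.23.

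Cyp27a1, the mitochondrial sterol hydroxylase that opens the alternative pathway, stood at 2.34, 2.15, 2.72 and 2.23 in E2f1 knockout livers, 1.97, 1.84, 1.81 and 1.42 in E2f2-labelled livers and -0.12, -0.06, 1.46 and 0.55 in wild type livers. All E2f1 knockout livers were above all wild type livers, while E2f2-labelled replicate 4 fell just below wild type replicate 3. The change was 1.91 ± 0.30 (adjusted p = 0.00238) in E2f1 knockout livers and 1.31 ± 0.30 (adjusted p = 0.011) in E2f2-labelled livers. Both rises kept an adjusted p under 0.05 under all 21 alternative settings tried.

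Cyp7a1, the rate-limiting enzyme of the classical pathway, had the largest standard error of the 31 genes and stood at 2.86, -0.62, 2.51 and 3.78 in E2f1 knockout livers, 2.32, 3.52, 2.87 and 2.02 in E2f2-labelled livers and -1.19, -1.48, 1.61 and 1.77 in wild type livers. Replicate 2 was low among the E2f1 knockout livers, at a level between those of the wild type livers. Cyp7a1 differed by 1.95 ± 0.95 (adjusted p = 0.171) in E2f1 knockout livers and by 2.50 ± 0.95 (adjusted p = 0.0772) in E2f2-labelled livers, and neither was called. All E2f2-labelled livers lay above all wild type livers. Without E2f1 knockout replicate 2 the first difference was 2.87 (adjusted p = 0.031), and without wild type replicate 3 the second was 2.98 (adjusted p = 0.0468).

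Cyp8b1, which sets the share of cholic acid, was at 0.98, 1.22, 2.64 and 1.99 in E2f1 knockout livers, 0.48, 0.40, 1.56 and 0.74 in E2f2-labelled livers and -2.61, -1.88, 0.89 and -0.51 in wild type livers. E2f1 knockout livers were above every wild type liver, with the nearest one close to wild type replicate 3, and E2f2-labelled livers overlapped wild type replicate 3. Cyp8b1 rose by 2.73 ± 0.64 (adjusted p = 0.0124) in E2f1 knockout livers. In E2f2-labelled livers the difference of 1.83 ± 0.64 (adjusted p = 0.06) missed the threshold, and was 2.46 (adjusted p = 0.00537) without wild type replicate 3. Higher values stood on all 4 slides in both genotypes, with E2f2-labelled differences of 0.68 to 3.09.

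Cyp39a1, the hydroxylase of 24-hydroxycholesterol, was the only synthesis gene called lower. Its levels were 2.19, 2.06, 2.46 and 3.32 in E2f1 knockout livers, 1.71, 1.64, 1.67 and 0.91 in E2f2-labelled livers and 5.02, 4.85, 2.44 and 3.80 in wild type livers. Wild type replicates 1 and 2 were high, replicate 3 was at the level of the E2f1 knockout livers, and all E2f2-labelled livers lay below all wild type livers. Cyp39a1 fell in E2f2-labelled livers, with a change of -2.55 ± 0.49 (adjusted p = 0.00511). In E2f1 knockout livers the change was -1.52 ± 0.49 (adjusted p = 0.0468), and its adjusted p was 0.0681 to 0.136 without wild type replicate 1, 2 or 4 or without E2f1 knockout replicate 1, 2 or 3.

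Akr1d1, the steroid reductase that shapes the A/B ring junction, was at -0.60, -0.50, 0.13 and -0.21 in E2f1 knockout livers, -1.80, -0.99, -1.69 and -1.39 in E2f2-labelled livers and -2.38, -3.57, -1.44 and -1.67 in wild type livers. E2f1 knockout livers were above all wild type livers, and E2f2-labelled livers overlapped them. Akr1d1 rose by 1.97 ± 0.39 (adjusted p = 0.00595) in E2f1 knockout livers, and its difference of 0.80 ± 0.39 (adjusted p = 0.163) in E2f2-labelled livers was not called. In wild type livers its probe was well above background on 3 of 4 arrays.

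Amacr, the racemase of the bile acid side chain, was at 4.65, 4.57, 5.31 and 4.66 in E2f1 knockout livers, 4.70, 4.73, 5.15 and 5.06 in E2f2-labelled livers and 3.23, 3.43, 4.34 and 3.92 in wild type livers. Both genotypes were above all wild type livers. The rises were 1.07 ± 0.25 (adjusted p = 0.0124) in E2f1 knockout livers and 1.18 ± 0.25 (adjusted p = 0.00743) in E2f2-labelled livers. Hsd3b7, the dehydrogenase acting on the first sterol ring, averaged 7.35 ± 0.46 in E2f1 knockout livers, 7.50 ± 0.28 in E2f2-labelled livers and 6.40 ± 0.63 in wild type livers. E2f1 knockout replicate 2 was below wild type replicate 3, and E2f2-labelled livers did not overlap wild type. Hsd3b7 was called higher at 0.95 ± 0.31 (adjusted p = 0.0479) in E2f1 knockout livers and at 1.10 ± 0.31 (adjusted p = 0.0257) in E2f2-labelled livers. The first call was lost, at adjusted p 0.0581 to 0.136, without wild type replicate 1, 2 or 4 or E2f1 knockout replicate 1, 3 or 4. The second was lost, at 0.0653 to 0.0767, without wild type replicate 1 or 2 or E2f2-labelled replicate 3 or 4.

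Both conjugation genes were called higher in both comparisons, against 13.2% of all genes in the E2f1 and 14.6% in the E2f2 comparison. Baat, which joins bile acids to taurine or glycine, was at 2.55, 2.71, 3.16 and 2.42 in E2f1 knockout livers, 2.47, 2.38, 2.44 and 2.19 in E2f2-labelled livers and 0.83, 1.18, 2.31 and 1.47 in wild type livers. E2f1 knockout livers were above all wild type livers, whereas E2f2-labelled replicate 4 was below wild type replicate 3. The rises were 1.26 ± 0.27 (adjusted p = 0.00856) in E2f1 knockout livers and 0.92 ± 0.27 (adjusted p = 0.0319) in E2f2-labelled livers. The second was lost, at adjusted p 0.0514 to 0.0893, when any array of these 2 groups other than wild type replicate 3 was left out.

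Slc27a5, the bile acid CoA ligase that readies bile acids for Baat, was at 8.67, 8.64, 9.29 and 9.17 in E2f1 knockout livers, 8.56, 9.00, 9.12 and 9.12 in E2f2-labelled livers and 6.96, 7.25, 8.45 and 7.98 in wild type livers. The 4 livers of each genotype were above all 4 wild type livers. The rises of 1.28 ± 0.30 (adjusted p = 0.0127) in E2f1 knockout livers and 1.29 ± 0.30 (adjusted p = 0.0115) in E2f2-labelled livers were past the threshold under all 21 alternatives. Its second probe, at mm9 chr7:13573924-13573983, changed by 1.30 in E2f1 knockout livers and by 1.09 in E2f2-labelled livers.

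**Figure D2:**
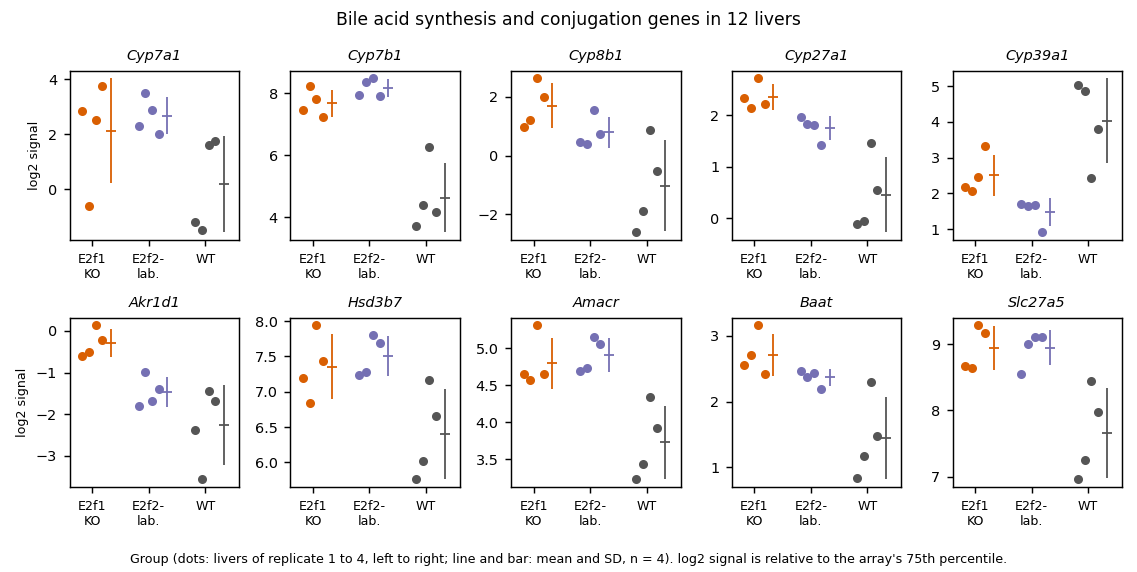
Each panel gives the log2 signal of a synthesis or conjugation gene relative to the array's 75th percentile (y axis), with a dot for each of the 4 livers of the E2f1 knockout, E2f2-labelled and wild type groups and the mean and SD beside them. Wild type replicate 3, the third of the 4 wild type dots, is the highest wild type liver for Cyp7b1, Cyp8b1, Cyp27a1, Akr1d1, Hsd3b7, Amacr, Baat and Slc27a5 and the lowest for Cyp39a1.

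Of 5 uptake genes, 4 were called higher in E2f1 knockout livers and 3 in E2f2-labelled livers, and none lower. The median log2 change was 1.41 in E2f1 knockout livers and 1.47 in E2f2-labelled livers. Among all genes 13.2% were called higher in the E2f1 and 14.6% in the E2f2 comparison. Slco1b2, the main liver transporter for unconjugated bile acids in the mouse, was at 8.53, 8.39, 8.42 and 8.67 in E2f1 knockout livers, 8.28, 8.54, 8.44 and 8.60 in E2f2-labelled livers and 5.10, 6.00, 8.40 and 6.93 in wild type livers. The 8 livers of both genotypes lay close together, while the wild type livers were spread widely, with replicate 3 inside the range of the other groups and replicate 1 far below. The changes were 1.90 ± 0.51 (adjusted p = 0.0219) in E2f1 knockout livers and 1.86 ± 0.51 (adjusted p = 0.0229) in E2f2-labelled livers. On the slide of wild type replicate 3 the E2f1 knockout difference was 0.02 and the E2f2-labelled difference 0.04. The calls were lost, at adjusted p 0.0505 to 0.0689, without wild type replicate 2 (both comparisons), without E2f1 knockout replicate 3 or 4, or without E2f2-labelled replicate 2, 3 or 4.

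Slco2b1, an organic anion carrier, was at 4.32, 4.24, 4.49 and 4.45 in E2f1 knockout livers, 4.25, 4.40, 4.29 and 4.30 in E2f2-labelled livers and 2.10, 1.96, 3.87 and 3.42 in wild type livers. Both genotypes were above all wild type livers, in which replicates 1 and 2 were low and 3 and 4 higher. The rises were 1.54 ± 0.35 (adjusted p = 0.0113) in E2f1 knockout livers and 1.47 ± 0.35 (adjusted p = 0.0127) in E2f2-labelled livers, past the threshold under all 21 alternatives. Its second probe, which overlaps the first, rose by 1.58 in each comparison.

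Slc10a2 (ASBT), the sodium-dependent carrier known for bile acid uptake in ileum and bile duct cells, was at 4.11, 4.63, 4.06 and 3.85 in E2f1 knockout livers, 3.86, 4.24, 4.18 and 4.77 in E2f2-labelled livers and 2.40, 2.16, 4.12 and 2.34 in wild type livers. Wild type replicate 3 was inside the range of both genotypes and the other wild type livers were well below. The changes were 1.41 ± 0.38 (adjusted p = 0.022) in E2f1 knockout livers and 1.51 ± 0.38 (adjusted p = 0.0161) in E2f2-labelled livers. The first call was lost, at adjusted p 0.0506 to 0.0708, without wild type replicate 1, 2 or 4 or E2f1 knockout replicate 2 or 3, and the second, at 0.0518, without wild type replicate 2. A second probe in the same gene, named 9130221J18Rik in the files, changed by 1.48 in E2f1 knockout livers and by 1.45 in E2f2-labelled livers.

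Slc10a1, the main carrier of conjugated bile acids into hepatocytes, gave a different answer with each of its 2 probes. The brighter probe, at mm9 chr12:82056539-82056598, was at 10.81, 11.16, 10.37 and 10.86 in E2f1 knockout livers, 10.64, 10.86, 10.97 and 10.95 in E2f2-labelled livers and 10.44, 10.85, 10.65 and 10.67 in wild type livers. The groups overlapped, and the changes of 0.15 ± 0.18 (adjusted p = 0.619) in E2f1 knockout livers and 0.20 ± 0.18 (adjusted p = 0.43) in E2f2-labelled livers were not called. Their direction turned with quantile normalization, to -0.14 in E2f1 knockout and to -0.16 in E2f2-labelled livers. The dimmer probe, at mm9 chr12:82061470-82061529, was at 3.65, 3.22, 4.26 and 3.73 in E2f1 knockout livers, 3.51, 3.28, 3.62 and 3.60 in E2f2-labelled livers and 1.37, 1.61, 2.95 and 2.46 in wild type livers. On that probe all livers of both genotypes were above all wild type livers. It rose by 1.62 (adjusted p = 0.00612 over all probes) in E2f1 knockout livers and by 1.40 (adjusted p = 0.0107) in E2f2-labelled livers. With the mean of both probes Slc10a1 was called higher at 0.88 (adjusted p = 0.00614) in E2f1 knockout livers and at 0.80 (adjusted p = 0.00868) in E2f2-labelled livers.

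Slco1a4, a carrier of bile acids and other organic anions, averaged 0.38 ± 0.59 in E2f1 knockout livers, -1.10 ± 0.30 in E2f2-labelled livers and -0.74 ± 0.71 in wild type livers. It was called higher in E2f1 knockout livers, at 1.12 ± 0.36 (adjusted p = 0.0446). That call was lost, at adjusted p 0.0937 to 0.132, without wild type replicate 1 or 2 or E2f1 knockout replicate 1, 3 or 4. In E2f2-labelled livers the difference was -0.37 ± 0.36 (adjusted p = 0.486), which was not called.

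Of 7 canalicular genes, 5 were called higher in E2f1 knockout livers, with a median log2 change of 1.13, and 6 in E2f2-labelled livers, with a median of 1.02. None was called lower. Among all genes 13.2% were called higher in the E2f1 and 14.6% in the E2f2 comparison. Abcb11, the bile salt export pump, was at 6.21, 6.09, 6.65 and 6.67 in E2f1 knockout livers, 6.14, 6.25, 6.52 and 6.66 in E2f2-labelled livers and 4.66, 4.90, 5.79 and 5.48 in wild type livers. All 8 livers of both genotypes were above the 4 wild type livers. Abcb11 rose by 1.20 ± 0.25 (adjusted p = 0.00748) in E2f1 knockout livers, which is 2.3-fold, and by 1.19 ± 0.25 (adjusted p = 0.00733) in E2f2-labelled livers, which is 2.27-fold. Within slides the difference was 0.86 to 1.56 for E2f1 knockout livers and 0.73 to 1.49 for E2f2-labelled livers. Its promoter stretch is the one above with TGACCT between 51 and 56 bases before the start site.

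Abcg2, an exporter of sulfated steroids and many drugs, was at 5.17, 5.54, 5.36 and 4.71 in E2f1 knockout livers, 4.77, 4.97, 5.45 and 5.47 in E2f2-labelled livers and 3.13, 3.35, 4.55 and 3.40 in wild type livers. Neither genotype overlapped wild type, whose replicate 3 was closest to them. The rises were 1.59 ± 0.30 (adjusted p = 0.00508) in E2f1 knockout livers and 1.56 ± 0.30 (adjusted p = 0.00523) in E2f2-labelled livers.

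Abcg5, one partner of the sterol exporter, was at 5.42, 5.09, 5.71 and 5.47 in E2f1 knockout livers, 5.14, 5.55, 5.53 and 5.00 in E2f2-labelled livers and 3.75, 3.99, 4.51 and 4.90 in wild type livers. Abcg8, the other partner, was at 0.36, 0.31, 0.79 and 0.63 in E2f1 knockout livers, 0.35, 0.50, 0.69 and -0.14 in E2f2-labelled livers and -1.27, -1.45, -0.34 and -0.47 in wild type livers. For both genes every liver of either genotype was above every wild type liver, and wild type replicates 1 and 2 were the lowest. Abcg5 rose by 1.13 ± 0.25 (adjusted p = 0.00914) in E2f1 knockout livers and by 1.02 ± 0.25 (adjusted p = 0.0138) in E2f2-labelled livers. Abcg8 rose by 1.40 ± 0.27 (adjusted p = 0.005) in E2f1 knockout livers and by 1.23 ± 0.27 (adjusted p = 0.00832) in E2f2-labelled livers. The stretch between the start sites of these genes is the one printed above.

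Abcc2 (MRP2), which exports bilirubin and bile acid conjugates, averaged 4.46 ± 0.20 in E2f1 knockout livers, 4.29 ± 0.23 in E2f2-labelled livers and 3.67 ± 0.23 in wild type livers. It rose by 0.78 ± 0.17 (adjusted p = 0.00853) in E2f1 knockout livers and by 0.62 ± 0.17 (adjusted p = 0.0232) in E2f2-labelled livers, and the slides differed little, with 0.72 to 0.84 for E2f1 knockout livers and 0.58 to 0.69 for E2f2-labelled livers. The second call was lost, at adjusted p 0.0509 to 0.066, without wild type replicate 1 or 2 or E2f2-labelled replicate 2, 3 or 4. Abcb4, the phospholipid flippase of the canalicular membrane, averaged 6.81 ± 0.25 in E2f1 knockout livers, 6.64 ± 0.27 in E2f2-labelled livers and 6.33 ± 0.11 in wild type livers. It differed by 0.48 ± 0.17 (adjusted p = 0.0686) in E2f1 knockout livers and 0.31 ± 0.17 (adjusted p = 0.219) in E2f2-labelled livers. Neither was called, and the first was at adjusted p 0.033 without E2f1 knockout replicate 1.

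Atp8b1, the canalicular aminophospholipid flippase, averaged -0.65 ± 0.24 in E2f1 knockout livers, -0.07 ± 0.25 in E2f2-labelled livers and -0.60 ± 0.20 in wild type livers. It differed by -0.04 ± 0.18 (adjusted p = 0.898) in E2f1 knockout livers, with overlapping groups. In E2f2-labelled livers it was called higher, at 0.54 ± 0.18 (adjusted p = 0.047). That call was lost, at adjusted p 0.0541 to 0.128, when any array of the 2 groups other than wild type replicate 1 was left out, and under 7 other settings.

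Basolateral exporters, which return bile acids to the blood, had 3 tested genes, of which 0 were called higher in either comparison by limma, against 13.2% of all genes in the E2f1 and 14.6% in the E2f2 comparison. Differences between roles were not tested. The median log2 change over these 3 genes was -0.14 in E2f1 knockout livers and -0.98 in E2f2-labelled livers. Slc51b is among the 3 and was tested through the wild type arrays alone, so these medians give no direction for the role. Abcc3 (MRP3), which exports bile acid glucuronides, is described with its level in each liver because it was the single gene called between the genotypes, a choice made after its values were seen. Its levels were 5.06, 4.66, 5.22 and 4.62 in E2f1 knockout livers, 3.18, 3.25, 4.24 and 4.07 in E2f2-labelled livers and 5.00, 4.46, 4.56 and 4.66 in wild type livers. All E2f2-labelled livers were below all livers of the other 2 groups. Abcc3 fell in E2f2-labelled livers, with a change of -0.98 ± 0.26 (adjusted p = 0.0185), and differed by 0.22 ± 0.26 (adjusted p = 0.608) in E2f1 knockout livers. The fall had an adjusted p of 0.0516 without wild type replicate 1 and of 0.0561 without E2f2-labelled replicate 2.

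Abcc4 (MRP4) averaged -1.0 ± 0.42 in E2f1 knockout livers, -1.37 ± 0.72 in E2f2-labelled livers and -0.86 ± 0.25 in wild type livers, and its differences of -0.14 ± 0.32 (adjusted p = 0.811) in E2f1 knockout livers and -0.52 ± 0.32 (adjusted p = 0.274) in E2f2-labelled livers were not called. Slc51b, a subunit of the organic solute transporter, was near the limit of detection. Its probe was well above background on 1 of 4 arrays of E2f1 knockout livers, on 1 of 4 of E2f2-labelled livers and on 3 of 4 of wild type livers. The mean levels were -4.10 ± 1.15 in E2f1 knockout livers, -4.27 ± 0.97 in E2f2-labelled livers and -3.04 ± 1.60 in wild type livers. Its differences of -1.06 ± 0.78 (adjusted p = 0.381) in E2f1 knockout livers and -1.23 ± 0.78 (adjusted p = 0.278) in E2f2-labelled livers were not called. Slc51b passed the filter on dim probes through the wild type arrays alone, so a lower level in the other groups carries no weight as a change. Without wild type replicate 3, the lowest wild type liver, the differences would be called, at -1.86 (adjusted p = 0.0459) in E2f1 knockout and -2.03 (adjusted p = 0.03) in E2f2-labelled livers. Slc51a, the other subunit, was not tested.

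**Figure D3:**
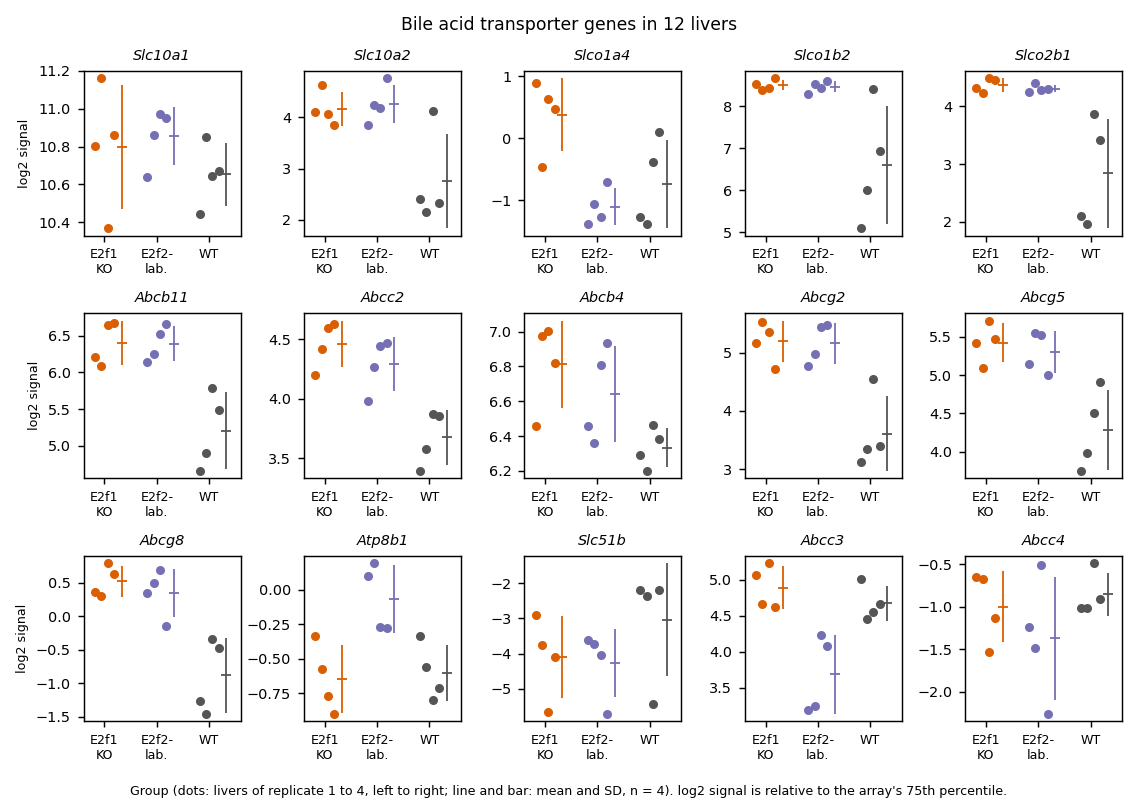
Each panel gives the log2 signal of a transporter gene relative to the array's 75th percentile (y axis), in the order uptake, canalicular export and basolateral export, with a dot for each of the 4 livers per group and the mean and SD. Abcb11, Abcg2, Abcg5 and Abcg8 show both genotypes above every wild type liver, and Abcc3 shows the E2f2-labelled livers below both other groups.

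The 6 sensing and control genes had median log2 changes of 0.51 in E2f1 knockout livers and 0.42 in E2f2-labelled livers. In each comparison 1 of them was called higher, near the share of all genes called higher, which was 13.2% and 14.6%. That gene was Nr1h4, the bile acid receptor FXR, at 5.33, 5.34, 5.34 and 5.47 in E2f1 knockout livers, 5.23, 5.80, 5.86 and 5.83 in E2f2-labelled livers and 4.07, 3.99, 5.04 and 4.83 in wild type livers. Both genotypes were above all wild type livers, in which replicates 1 and 2 were lower than replicates 3 and 4. Nr1h4 rose by 0.89 ± 0.24 (adjusted p = 0.022) in E2f1 knockout livers and by 1.20 ± 0.24 (adjusted p = 0.00581) in E2f2-labelled livers. The first call was lost, at adjusted p 0.0515 to 0.0703, without wild type replicate 1 or 2 or E2f1 knockout replicate 3 or 4.

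Nr0b2 (SHP), the repressor that Nr1h4 induces, was at -0.88, -0.58, 0.07 and -0.99 in E2f1 knockout livers, -1.76, -1.32, -0.44 and -0.97 in E2f2-labelled livers and -0.89, -1.24, -1.65 and -1.31 in wild type livers. The groups overlapped, with E2f1 knockout replicate 3 the highest liver. Its differences of 0.68 ± 0.30 (adjusted p = 0.132) in E2f1 knockout livers and 0.15 ± 0.30 (adjusted p = 0.752) in E2f2-labelled livers were not called, and the second turned to -0.04 when arrays were scaled on probes detected on every array.

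Nr5a2 (LRH-1), an activator of Cyp7a1 and Cyp8b1, averaged 4.82 ± 0.04 in E2f1 knockout livers, 4.45 ± 0.06 in E2f2-labelled livers and 4.49 ± 0.13 in wild type livers. E2f1 knockout livers were above all others, yet the change of 0.34 ± 0.12 (adjusted p = 0.0627) was not called, and that of -0.04 ± 0.12 (adjusted p = 0.835) in E2f2-labelled livers was not called either. Its 2 probes disagreed in E2f2-labelled livers, where the dimmer changed by 0.59 (adjusted p = 0.0512 over all probes). Fgfr4, the receptor for FGF15, averaged 3.29 ± 0.49 in E2f1 knockout livers, 3.66 ± 0.15 in E2f2-labelled livers and 3.09 ± 0.37 in wild type livers. It differed by 0.20 ± 0.25 (adjusted p = 0.618) in E2f1 knockout livers and 0.57 ± 0.25 (adjusted p = 0.115) in E2f2-labelled livers. The dimmer Fgfr4 probe changed by -0.13 in E2f1 knockout livers and by 0.13 in E2f2-labelled livers.

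Klb, the co-receptor of Fgfr4, averaged 0.90 ± 0.46 in E2f1 knockout livers, 0.62 ± 0.19 in E2f2-labelled livers and 0.19 ± 0.34 in wild type livers. It differed by 0.71 ± 0.24 (adjusted p = 0.0513) in E2f1 knockout livers, and by 0.43 ± 0.24 (adjusted p = 0.215) in E2f2-labelled livers. Leaving out E2f1 knockout replicate 1 or 2 or wild type replicate 4, it was called in E2f1 knockout livers, at adjusted p 0.0315 to 0.0377. Gpbar1 (TGR5), the membrane receptor for bile acids, averaged -1.13 ± 0.23 in E2f1 knockout livers, -0.84 ± 0.56 in E2f2-labelled livers and -1.24 ± 0.40 in wild type livers. It differed by 0.12 ± 0.28 (adjusted p = 0.822) in E2f1 knockout livers and 0.41 ± 0.28 (adjusted p = 0.312) in E2f2-labelled livers, with overlapping groups.

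**Figure D4:**
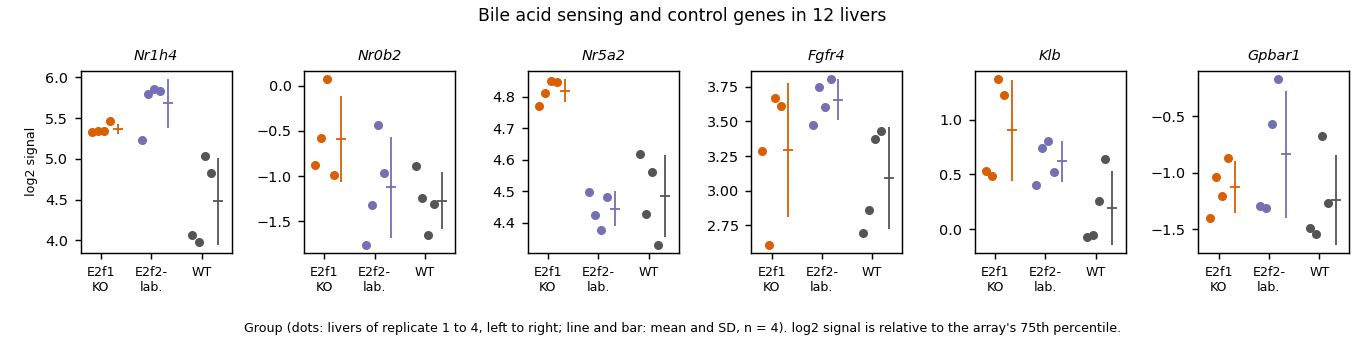
Each panel gives the log2 signal of a sensing or control gene relative to the array's 75th percentile (y axis), with a dot for each of the 4 livers per group and the mean and SD. Nr1h4 is above wild type in all 8 livers of both genotypes, while Nr0b2, Klb and Gpbar1 overlap between the groups.

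Set side by side, 15 genes were called higher in both comparisons, which share the wild type arrays. They were Cyp7b1, Cyp27a1, Hsd3b7, Amacr, Baat, Slc27a5, Slc10a2, Slco1b2, Slco2b1, Abcb11, Abcc2, Abcg2, Abcg5, Abcg8 and Nr1h4. Cyp39a1 was called lower in both. Among all genes 13.2% were called higher and 7.41% lower in the E2f1 comparison, and 14.6% and 7.58% in the E2f2 comparison. How many of all genes were called alike in both was not counted. Cyp8b1, Akr1d1 and Slco1a4 were called in E2f1 knockout livers alone, and Atp8b1 and Abcc3 in E2f2-labelled livers alone. The 10 others, among them Cyp7a1, Slc10a1 and Nr0b2, were called in neither. Among the 15 genes called higher in both, the smallest difference lay on slide 3 for 11 in E2f1 knockout livers and for 13 in E2f2-labelled livers. That slide held wild type replicate 3. The matching share of all genes was not counted, so these counts are not a result about bile acid genes in particular.

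Beyond leaving out arrays, 13 settings of background, scaling, filter, probe choice and model were tried in each comparison. In E2f1 knockout livers the calls were lost in 7 of them for Hsd3b7 (adjusted p 0.0559 to 0.155) and Slco1a4 (0.0514 to 0.0887), in 3 for Cyp39a1 (0.0599 to 0.0923) and Nr1h4 (0.0506 to 0.0932) and in 1 for Slco1b2 (0.0586). In E2f2-labelled livers they were lost in 7 for Baat (0.0575 to 0.0834) and Atp8b1 (0.0613 to 0.227), in 6 for Abcc2 (0.0605 to 0.0945), in 5 for Hsd3b7 (0.052 to 0.0743), in 3 for Slco1b2 (0.0505 to 0.0606) and in 1 for Abcg5 (0.0512). Other changes were called only in some of these settings. With slide as a block these were Klb (adjusted p = 0.021) and Abcb4 (0.0373) in E2f1 knockout livers and Cyp8b1 (0.00593) in E2f2-labelled livers. Klb was called in E2f1 knockout livers in 5 settings (0.021 to 0.0499) and Nr5a2 in 2 (0.0347 to 0.0421), and Cyp8b1 in E2f2-labelled livers in 3 (0.00593 to 0.0488). The mean of all probes called Slc10a1 in both comparisons. Array weights called Cyp7a1 (adjusted p = 0.0157), Cyp8b1 (0.00728), Akr1d1 (0.0201) and Fgfr4 (0.038) in E2f2-labelled livers.

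**Figure D5:**
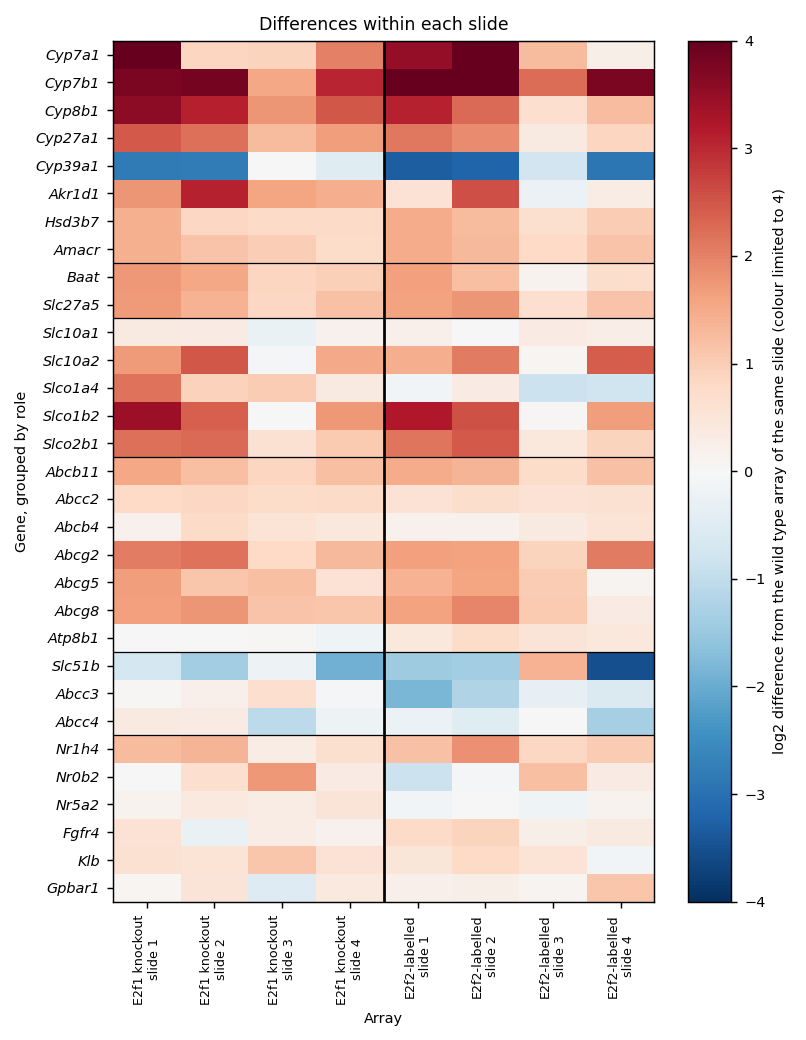
Colours give the log2 difference between each E2f1 knockout (left) or E2f2-labelled (right) array and the wild type array of the same slide, for 31 genes in rows grouped by role, with red for higher and blue for lower and colour limited to 4 units. Cyp7b1 is red in all 8 columns, from 1.55 to 4.23, and Cyp39a1 is blue in 7 of 8.

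A direct test between the genotypes asked whether E2f2-labelled livers differed from E2f1 knockout livers. Of the 31 genes, 1 was called, against 1.64% of all genes, and the median difference was -0.12. It was Abcc3, at -1.20 ± 0.26 (adjusted p = 0.0367), which is 0.434-fold, lower on all 4 slides by -1.88 to -0.54. The call was lost, at adjusted p 0.0537 to 0.122, without any one E2f1 knockout array or without E2f2-labelled replicate 1 or 2. It was also lost in 3 other settings (adjusted p 0.0547 to 0.085). Other bile acid genes were called in some of these settings and were not identified. In 6 genes all E2f2-labelled livers were below all E2f1 knockout livers, against 3.83% of all genes, and in 1, Atp8b1, all were above, against 5.23%. These 7 of 31 genes compare with 9.06% of all genes in either direction. Besides Abcc3 and Atp8b1 they were Cyp27a1, Cyp39a1, Akr1d1, Slco1a4 and Nr5a2, none of them called. Of these Slco1a4 had the smallest adjusted p, with a difference of -1.48 ± 0.36 (adjusted p = 0.0682). Cyp8b1, called in the E2f1 comparison alone, differed between the genotypes by -0.91 ± 0.64 (adjusted p = 0.69), and Akr1d1 by -1.18 ± 0.39 (adjusted p = 0.22). Neither was shown to differ between them. These standard errors pool the spread of all 3 groups, wild type included. In E2f1 knockout, E2f2-labelled and wild type livers the SD was 0.328, 0.363 and 0.955 for Akr1d1. For Cyp8b1 it was 0.755, 0.532 and 1.546.

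Further genes of bile acid metabolism were counted from lists that are not among the 32. Among all genes 13.2% were called higher and 7.41% lower in the E2f1 comparison, and 14.6% and 7.58% in the E2f2 comparison. Of 19 tested genes for side-chain oxidation, electron supply and other synthesis steps, 14 were called higher and 0 lower in E2f1 knockout livers, with a median of 0.98. In E2f2-labelled livers 13 were higher and 0 lower, with a median of 0.87. Por, the reductase that feeds electrons to microsomal cytochromes P450, was higher by 2.18 ± 0.33 (adjusted p = 0.00187) in E2f1 knockout livers and by 1.79 ± 0.33 (adjusted p = 0.00435) in E2f2-labelled livers. Akr1c6, an aldo-keto reductase, was higher by 1.88 ± 0.42 (adjusted p = 0.00969) in E2f1 knockout and 1.49 ± 0.42 (adjusted p = 0.025) in E2f2-labelled livers. Acox2, the oxidase of the bile acid side chain, named after its values were seen, was higher in E2f1 knockout livers, by 0.52 ± 0.15 (adjusted p = 0.0305), and lower in E2f2-labelled than in E2f1 knockout livers, by -0.79 ± 0.15 (adjusted p = 0.0182).

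The next 2 lists stand against 13.2% higher and 7.41% lower of all genes in the E2f1 comparison, and 14.6% and 7.58% in the E2f2 comparison. Of 6 detoxification genes, 3 were called higher and 2 lower in E2f1 knockout livers, and 2 higher and 2 lower in E2f2-labelled livers. The lower ones were Sult2a1, a bile acid sulfotransferase, and Cyp2b10. The Sult2a1 probe was well above background on 0 of 4 E2f1 knockout, 0 of 4 E2f2-labelled and 3 of 4 wild type arrays. It was thus tested through the wild type group alone, so a lower level in the other groups carries no weight as a change. Its wild type levels were spread widely, at -1.57 ± 2.39. Arrays of the dim groups were counted at their lowest signal well above background, or at the probe's own level where higher. The wild type mean was then 4.68-fold above that of E2f1 knockout livers and 5.18-fold above that of E2f2-labelled livers. Cyp2b10, a xenobiotic-induced hydroxylase, changed by -1.87 ± 0.54 (adjusted p = 0.0298) in E2f1 knockout and -4.53 ± 0.54 (adjusted p = 0.000344) in E2f2-labelled livers. Sult2a8, a liver bile acid sulfotransferase of the mouse, was higher, at 2.61 ± 0.53 (adjusted p = 0.0066) in E2f1 knockout and 2.64 ± 0.53 (adjusted p = 0.00599) in E2f2-labelled livers. Of 15 other transporters, 7 were called higher and 3 lower in each comparison, with medians of 0.47 in E2f1 knockout livers and 0.49 in E2f2-labelled livers. Abcc1, among those lower in E2f2-labelled livers, was well above background on 2 E2f1 knockout, 1 E2f2-labelled and 4 wild type arrays. It passed the filter on dim probes through the wild type group alone. Slco1a1, an organic anion carrier, was higher by 3.03 ± 0.58 (adjusted p = 0.00507) in E2f1 knockout and 3.12 ± 0.58 (adjusted p = 0.0043) in E2f2-labelled livers, and Abcb1a, a drug exporter, was lower, at -2.29 ± 0.34 (adjusted p = 0.00173) in E2f1 knockout and -2.49 ± 0.34 (adjusted p = 0.000771) in E2f2-labelled livers.

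Of 24 further regulators, 6 were called higher and 2 lower in E2f1 knockout livers, and 8 higher and 0 lower in E2f2-labelled livers. Rxra, the partner of Nr1h4, was higher in E2f2-labelled livers by 0.86 ± 0.19 (adjusted p = 0.00911) and differed by 0.53 ± 0.19 (adjusted p = 0.0708) in E2f1 knockout livers. Nr1i3 (CAR), a xenobiotic receptor, was higher in E2f1 knockout livers by 2.17 ± 0.50 (adjusted p = 0.0118) and differed by 1.27 ± 0.50 (adjusted p = 0.0895) in E2f2-labelled livers. The difference between the genotypes was not called for either gene, at 0.33 ± 0.19 (adjusted p = 0.581) for Rxra and -0.90 ± 0.50 (adjusted p = 0.567) for Nr1i3. The 2 regulators called lower in E2f1 knockout livers were Onecut1, a hepatic transcription factor, at -1.50 ± 0.36 (adjusted p = 0.0128), and Fgf21, a liver hormone of fasting, at -1.38 ± 0.33 (adjusted p = 0.0135). In E2f2-labelled livers Onecut1 differed by -0.25 ± 0.36 (adjusted p = 0.64) and Fgf21 by -0.95 ± 0.33 (adjusted p = 0.0592). Of 14 genes for tight junctions and anchoring of canalicular transporters, 2 were higher and 2 lower in E2f1 knockout livers. In E2f2-labelled livers 3 were higher and 3 lower. For these genes and the regulators, the shares of all genes were 13.2% higher and 7.41% lower in the E2f1 comparison. In the E2f2 comparison they were 14.6% and 7.58%. Slc9a3r1, a scaffold for apical transporters, was higher by 1.06 ± 0.17 (adjusted p = 0.0022) in E2f1 knockout and 1.22 ± 0.17 (adjusted p = 0.000771) in E2f2-labelled livers, and Ezr, which links membrane proteins to actin, was lower, at -1.10 ± 0.28 (adjusted p = 0.0176) in E2f1 knockout and -1.13 ± 0.28 (adjusted p = 0.015) in E2f2-labelled livers.

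Markers of cell types and of other states moved in the same samples, and their part in the results above was not tested. Among all genes 13.2% were called higher and 7.41% lower in the E2f1 comparison, and 14.6% and 7.58% in the E2f2 comparison. Sums over a list add the signals of different probes and follow the brightest of them, so they are set only between livers and not between lists. Of 13 tested hepatocyte markers, 8 were called higher in E2f1 knockout livers and 5 in E2f2-labelled livers, and none lower. Alb, Ttr, Apoa1 and Apoa2 were called in neither. The summed signal of the 13, relative to each array's 75th percentile, was 7805 to 10860 in E2f1 knockout livers, 5911 to 9118 in E2f2-labelled livers and 4767 to 7595 in wild type livers. Alb made up 23.0% to 49.1% of it. Without Alb the sums were 5454 to 7773 in E2f1 knockout livers, 4457 to 6511 in E2f2-labelled livers and 2698 to 4821 in wild type livers. Of 10 tested cholangiocyte markers, Spp1 and Cd24a were called lower in both comparisons and none higher. Changes were above 0 for 6 of the 10 in E2f1 knockout livers (median 0.28) and for 7 in E2f2-labelled livers (median 0.17). Sums over the 10 were 18.96 to 27.8 in E2f1 knockout livers, 21.9 to 38.2 in E2f2-labelled livers and 25.4 to 59.9 in wild type livers. Aqp1 made up 30.5% to 87.8% of them. Without it they were 4.55 to 9.17 in E2f1 knockout livers, 4.67 to 8.09 in E2f2-labelled livers and 6.18 to 41.65 in wild type livers. Of 10 stellate cell markers 4 were lower in E2f1 knockout livers and 3 in E2f2-labelled livers, and of 12 macrophage markers 2 were higher in each, with 1 and 2 lower. Of 10 endothelial markers 1 was higher in each comparison, with 1 and 2 lower. Of 7 lymphocyte markers 1 was higher in E2f1 knockout and 1 lower in E2f2-labelled livers, and of 3 markers of pancreas and intestine 1 was lower in each. Cd163, a higher macrophage marker, was well above background on 4 E2f1 knockout, 4 E2f2-labelled and 0 wild type arrays. For Ms4a1, the higher lymphocyte marker, the counts were 4, 3 and 2. Both passed the filter on dim probes only through the groups where they were high.

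Genes known for a sex bias in mouse liver and genes of the clock moved too. Among all genes 13.2% were called higher and 7.41% lower in the E2f1 comparison, and 14.6% and 7.58% in the E2f2 comparison. Of 9 tested male-biased genes, of which Slco1a1 is also among the transporters above, 8 were higher in E2f1 knockout livers and 9 in E2f2-labelled livers. Their summed signal was 1218 to 1662 in E2f1 knockout livers, 1229 to 1919 in E2f2-labelled livers and 298 to 1244 in wild type livers. The Mup20 probe made up 72.3% to 91.0% of it. Without Mup20 the sums were 187 to 391 in E2f1 knockout livers, 308 to 518 in E2f2-labelled livers and 32.1 to 208 in wild type livers. Of 9 female-biased genes, Sult2a1 included, 4 were lower in E2f1 knockout livers and 6 in E2f2-labelled livers. Among the lower ones, Sult2a1 in both comparisons and Cux2 in E2f1 knockout livers passed the filter on dim probes through wild type arrays alone. Those calls carry no weight as changes. Sums over the 9 genes were 126 to 219 in E2f1 knockout livers, 44.8 to 98.8 in E2f2-labelled livers and 161 to 471 in wild type livers. The Cyp2a4 probe made up 96.1% to 99.1% of them. Cyp2a4 differed by -0.58 ± 0.38 (adjusted p = 0.314) in E2f1 knockout livers, which was not called, and fell in E2f2-labelled livers, with a change of -1.97 ± 0.38 (adjusted p = 0.0049). Without it the sums were 1.15 to 3.33 in E2f1 knockout livers, 0.757 to 1.56 in E2f2-labelled livers and 2.77 to 16.9 in wild type livers. Of 17 clock genes, whose levels change with the hour of killing, 10 were higher and 1 lower in E2f1 knockout livers. In E2f2-labelled livers 10 were higher and 2 lower. Ciart, higher in both, was well above background on 4 E2f1 knockout, 4 E2f2-labelled and 0 wild type arrays. In the same order the counts were 3, 4 and 1 for Bhlhe41, higher in E2f2-labelled livers, and 0, 0 and 3 for Npas2, lower there. These genes passed the filter only through the groups where they were high. Sums over the 17 genes were 245 to 262 in E2f1 knockout livers, 204 to 294 in E2f2-labelled livers and 45.1 to 124 in wild type livers.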

How the data were processed

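RNA of 12 livers, 4 per group, was hybridised to 1 array each, after labelling of 50 ng per liver, per the labels' protocols. The submitters' processing notes name Agilent Feature Extraction 10.7.3.1, and per the file headers the processed signal the authors deposited is an intensity from which background was subtracted. The deposited series matrix holds log2 values by the authors, all arrays with a median of 3.84, and no source used here gives how they were made. They served as an alternative.

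Processed signals were set to log2 and the array's 75th percentile over all non-control spots was subtracted. Outlier spots were dropped and spots of a probe averaged. Testing took in probes well above background on 3 or more of the 4 arrays in 1 group or more, 28442 of 55681 probes. The brightest tested probe stood for a gene. Genes were tested with limma 3.58.1 (R 4.3.3) on all 12 arrays, with no covariate, 9 residual degrees of freedom and Benjamini-Hochberg adjustment at 0.05. The code was tried on simulated independent normal values, with the same spread of a gene in every group and no slide effect. The real arrays differ from that setting, so the trial does not show how the procedure does on them. Groups came from titles and characteristics, and all samples were used. The labels name separate mice. Members and lists were chosen with earlier results of these data known. Levels of every liver are given for the 16 members with the largest called change and for Cyp7a1, Nr1h4, Nr0b2, Abcb11 and Slc10a1, 19 in all, and for Abcc3, chosen after its values were seen, with means and SD for the others. Of other lists, up to 3 called genes with the largest change are named. Probe coordinates come from the files (mm9), and sequences are RefSeq's (GRCm38.p6). Alternatives covered background correction (normexp), scaling, probe filters, outlier spots, probe choice, slide block, groups in the fit, array weights, variance model and leaving out each array.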

Additional observations from a re-analysis of the deposited data

Results flagged for a closer look

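Among 93 groups of 4 livers, 1 for each of the 31 genes and 3 genotypes, 6 held a liver far from the other 3, while chance alone marks about 1 in 20 groups. Cyp39a1 in E2f2-labelled replicate 4 was at 0.914, against 1.64 to 1.71 in the other 3. Amacr in E2f1 knockout replicate 3 was at 5.309, against 4.57 to 4.66. Nr1h4 in E2f1 knockout replicate 4 was at 5.465, against 5.33 to 5.34, and in E2f2-labelled replicate 1 it was at 5.231, against 5.80 to 5.86.

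The other 2 cases were in wild type replicate 3, whose Slc10a2 level of 4.116 stood against 2.16 to 2.40 in the other wild type livers. In the same liver Slc51b was at -5.436, against -2.35 to -2.18, and its probe was well above background on 3 of the 4 wild type arrays.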

How the results depend on the processing

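Under 21 alternatives per comparison, 23 of 37 called changes of bile acid genes stayed past the threshold in every one, and none of the 37 changed sign. Of 25 changes that were not called, 12 were called under some alternative and 8 changed sign. Without a filter on dim probes the numbers of genes called were 2789 for E2f1 knockout and 2989 for E2f2-labelled livers, and no bile acid gene was called lower in E2f1 knockout livers (0) or between the genotypes (0). Median centring gave 2928 genes for E2f2-labelled livers, and series matrix values gave 10 bile acid genes higher there. Between the genotypes, normexp gave 214 genes, a filter on all 12 arrays 208 and array weights 519. Array weights, the trended robust variance and a fit of the 2 groups alone each called 2 bile acid genes between the genotypes. The last of these settings called 0 lower in E2f1 knockout livers. In it Abcc3 was not called between the genotypes (adjusted p = 0.0735), so both genes called there were others. With median centring 1 bile acid gene was called between the genotypes, and it was not Abcc3 (adjusted p = 0.0547). The genes called in these 2 settings were not identified. Leaving out 1 array gave 2538 to 4897 genes for E2f1 knockout, 2754 to 5279 for E2f2-labelled livers and 235 to 283 between the genotypes. For bile acid genes these ranges were 0 to 2 lower in E2f1 knockout livers, 10 to 17 higher and 1 to 3 lower in E2f2-labelled livers, and 0 to 1 between the genotypes. The cause of these shifts was not tested.

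With slide, which equals the replicate number, as a replicate block, 5487, 6295 and 436 genes were called in the 3 comparisons, and bile acid genes numbered 20 higher and 0 lower in E2f1 knockout livers, 17 higher and 2 lower in E2f2-labelled livers and 3 between the genotypes. Deviations of same-slide arrays correlated over 0.1 in 10 of 12 pairs, over a range of r across genes from 0.0413 to 0.424. Each array's correlations with arrays of the other groups were averaged by slide. For 11 of 12 arrays the highest such mean was that of its own slide, a hint from the data and not from the design.

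Changes that turned sign were all uncalled. In E2f1 knockout livers these were Slc10a1 with quantile normalization (-0.144), with scaling on detected probes (-0.009) and with series matrix values (-0.139), and Abcc3 with quantile normalization (-0.049) and series matrix values (-0.051). Gpbar1 turned to -0.04 with scaling on detected probes, and Abcc4 to 0.015 with array weights. Leaving out 1 array gave -0.257 to 0.037 for Abcc4, highest without E2f1 knockout replicate 3, and -0.147 to 0.045 for Atp8b1, above 0 without wild type replicate 1 or, at 0.04, E2f1 knockout replicate 4. In E2f2-labelled livers Slc10a1 turned to -0.162 with quantile normalization and -0.174 with series matrix values, Nr0b2 to -0.036 with scaling on detected probes, and Nr5a2 to 0.274 with the mean of its probes. Leaving out 1 array gave -0.078 (without replicate 3) to 0.362 for Nr0b2 and -0.091 to 0.005 (without wild type replicate 1) for Nr5a2. Signal over background limited Slc51a and Slc51b. The alternatives for counts by role and for the Abcc3 difference between the genotypes were chosen after seeing the data.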
